A study of Mus musculus with 6 samples.

Results

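The genes described here encode the subunits of the mitochondrial respiratory chain that are made from nuclear DNA. They were chosen by symbol, as the Nduf subunit genes of the groups a, b, c, s and v, the Sdh genes, and the symbols that begin with Uqcr, Cox4 to Cox8 or Atp5. Of the 19943 genes with a count in any library, 83 matched. They were assigned to complex I (35 genes), complex II (4), complex III (8), complex IV (19) and complex V (15). Ndufa4 and its relative Ndufa4l2 carry a complex I name but were counted with complex IV, to which the Ndufa4 protein belongs. Atp5s and Atp5sl match by symbol but are not subunits, and RefSeq now calls them Dmac2l and Dmac2.

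RNA was sequenced from C57BL/6 mice, from the medial prefrontal cortex, a part of the frontal lobe involved in social behaviour and planning. There were 3 control libraries and 3 libraries of mice isolated for 3 weeks after weaning, called here control 1 to 3 and isolated 1 to 3. Both groups were 6 weeks old by the labels and 7 weeks old by the series text, and neither gives the sex or any transgene. The labels do not tie the libraries to separate animals, and p-values then measure only the spread between 3 libraries a group, which may be technical.

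The respiratory chain is a set of protein complexes in the inner mitochondrial membrane. Complex I takes electrons from NADH and complex II takes them from succinate, both hand them to ubiquinone, complex III passes them on to cytochrome c, and complex IV passes them to oxygen. Complexes I, III and IV move protons across the membrane, and complex V, the ATP synthase, makes ATP as the protons flow back, which covers most of the ATP that neurons spend on ion pumping and synaptic transmission. Complex II is encoded wholly in the nucleus, whereas the other complexes also hold subunits encoded by mitochondrial DNA, which were not analysed here.

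Total expected counts lay between 18226448 and 18606573 per library, and the 83 genes held 0.78% to 0.8% of them. Markers of excitatory cortical neurons summed to 5860 to 7390 CPM (normalised reads of each library, scaled to equal totals) in control and 5710 to 6990 CPM in isolated libraries. Markers of striatal projection neurons, cells of a neighbouring region, summed to 305 to 3250 CPM in controls and 486 to 2330 CPM in isolated libraries, with the highest sums in control 2 and isolated 3. Oligodendrocyte markers summed to 2650 to 4430 CPM in controls and 3440 to 6330 CPM in isolated libraries, with isolated 3 highest. All 9 striatal, 4 astrocyte, 4 microglia, 4 endothelial, 5 parvalbumin interneuron and 8 pericyte and smooth muscle markers were lower in the isolated mean. All 6 oligodendrocyte and 5 red blood cell genes were higher. None of these passed edgeR's quasi-likelihood test at an adjusted p under 0.05. Tac1 stands in both the striatal and the parvalbumin list and was highest in control 2 and isolated 3. Summed astrocyte markers did not overlap between the groups, at 3260 to 3490 CPM in controls and 2950 to 3150 CPM in isolated libraries. Most of that sum was Slc1a2, at 2970 to 3203 CPM in controls and 2676 to 2878 CPM in isolated libraries. Taken singly, Slc1a2 and Aqp4 did not overlap, whereas Aldh1l1 and Gja1 did. Summed endothelial markers did not overlap either, at 158 to 168 CPM in controls and 144 to 155 CPM in isolated libraries. Taken singly, only Flt1 among them did not overlap, whereas Cldn5, Pecam1 and Slco1a4 did. The other cell type sums overlapped. The part of these cell types in the values below was not tested, except that estimates without control 2 and isolated 3 are given for some genes.

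The promoters of respiratory chain genes are known for binding sites of NRF-1, of the ETS factor GABP (also called NRF-2) and of YY1. RefSeq promoter sequences, 250 bases before to 50 bases after a transcription start on the build GRCm38.p6, were matched for 69 of the 83 genes. Among the genes without an entry were Atp5a1, Cox4i1, Cox4i2, Cox6a2, Cox6c, Ndufa2, Ndufa4l2, Ndufb9, Ndufs1, Sdhc, Uqcrb, Uqcrc2 and Uqcrq. Exact matches on both strands were sought for a 10-base NRF-1 palindrome (spelled by the capitals in its windows), CCGGAAG (ETS) and AAGATGGC (YY1), none of which is contained in another. Positions are counted from 1 at the start. A match is a description of the letters, and no library here measured binding.

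The YY1 letters had the most uneven placement. They occurred in 11 of the 69 genes (15.9%), against 3.2% of all 27025 genes with a promoter entry and 4.8% of the 11974 of these that were tested for expression. In 9 of the 69 genes (13.0%) they lay on the coding strand within the 50 bases after a start, against 2.11% of the tested genes. Of those 9 genes, 7 belong to complex I (of 31 with a promoter), 1 to complex V and 1 is Atp5sl, from 1 of its listed starts. No promoter of complexes II (3 genes), III (5) or IV (14) held them there. The 7 complex I windows of 30 bases are printed to show this shared placement. Their matches, in capitals, lie between bases 23 and 46 from the transcription start. The letters contain ATG, the start codon of translation, and whether the matches cover translation starts was not tested.
Ndufa3, chr7:3617384-3617413, plus strand: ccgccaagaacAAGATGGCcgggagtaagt
Ndufa9, chr6:126849097-126849126, minus strand: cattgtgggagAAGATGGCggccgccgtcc
Ndufb8, chr19:44555393-44555422, minus strand: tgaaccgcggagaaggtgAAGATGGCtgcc
Ndufc1, chr3:51408915-51408944, minus strand: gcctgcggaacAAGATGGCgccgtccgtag
Ndufs4, chr13:114388045-114388074, minus strand: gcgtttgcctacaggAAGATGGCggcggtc
Ndufs6, chr13:73328433-73328462, minus strand: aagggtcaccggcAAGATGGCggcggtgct
Ndufs7, chr10:80249462-80249491, plus strand: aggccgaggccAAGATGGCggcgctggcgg

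The palindromic NRF-1 letters occurred in 5 of 69 genes (7.2%), against 1.1% of all and 2.1% of tested genes with a promoter. These 5 genes come from 4 complexes. They are printed in capitals because, unlike the YY1 letters, they lie before the start in every gene but Uqcrc1, where they lie at bases 31 to 40.
Atp5g2 (V), chr15:102671070-102671099, minus strand: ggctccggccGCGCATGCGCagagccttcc
Atp5k (V), chr5:108434430-108434459, minus strand: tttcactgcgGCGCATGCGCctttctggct
Cox6a1 (IV), chr5:115349101-115349130, minus strand: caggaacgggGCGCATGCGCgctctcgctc
Ndufa11 (I), chr17:56717692-56717721, plus strand: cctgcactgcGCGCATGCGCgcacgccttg
Uqcrc1 (III), chr9:108936668-108936697, plus strand: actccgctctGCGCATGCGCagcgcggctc

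The ETS letters occurred in 16 of 69 genes (23.2%), against 9.9% of all and 17.7% of tested genes with a promoter. They were spread over all complexes, with 4 genes of complex I, 2 of complex II, 2 of complex III, 3 of complex IV and 5 of complex V. The median GC content of the 69 promoters was 57.3%, below the 60.7% of tested genes and above the 52.7% of all genes. Both Ndufs3 matches are shown because Ndufs3 is the gene with the smallest p-value below, the second on the opposite strand, at bases 2 to 8 from the start.
Ndufs3, chr2:90904730-90904759, minus strand: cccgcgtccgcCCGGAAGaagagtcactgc
Ndufs3, chr2:90904702-90904731, minus strand: gcacatttccaCTTCCGGtccgtgcccttg

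The chain's transcripts were abundant in the cortex. Levels are compared between genes as FPKM, the authors' read count per length and library size. Of the 83 genes, 81 passed the filter on low counts, and only the tissue isoforms Cox7b2 and Cox8b did not. The median over the 81 was 82.3 FPKM, against 7.76 FPKM over all 15169 tested genes, and 64 of the 81 lay at or above 47.3 FPKM, the level under which 90% of tested genes fall. In order of mean level, Atp5b, the catalytic beta subunit of the ATP synthase, came first at 558 FPKM, followed by 4 complex IV genes, Cox8a (496 FPKM), Cox6a1 (481 FPKM), Cox4i1 (376 FPKM) and Ndufa4 (300.4 FPKM). Cox8a and Cox6a1 do not differ beyond their spread, since Cox6a1 ranged from 450 to 504 FPKM over the libraries and Cox8a from 483 to 510 FPKM.

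**Figure D1:**
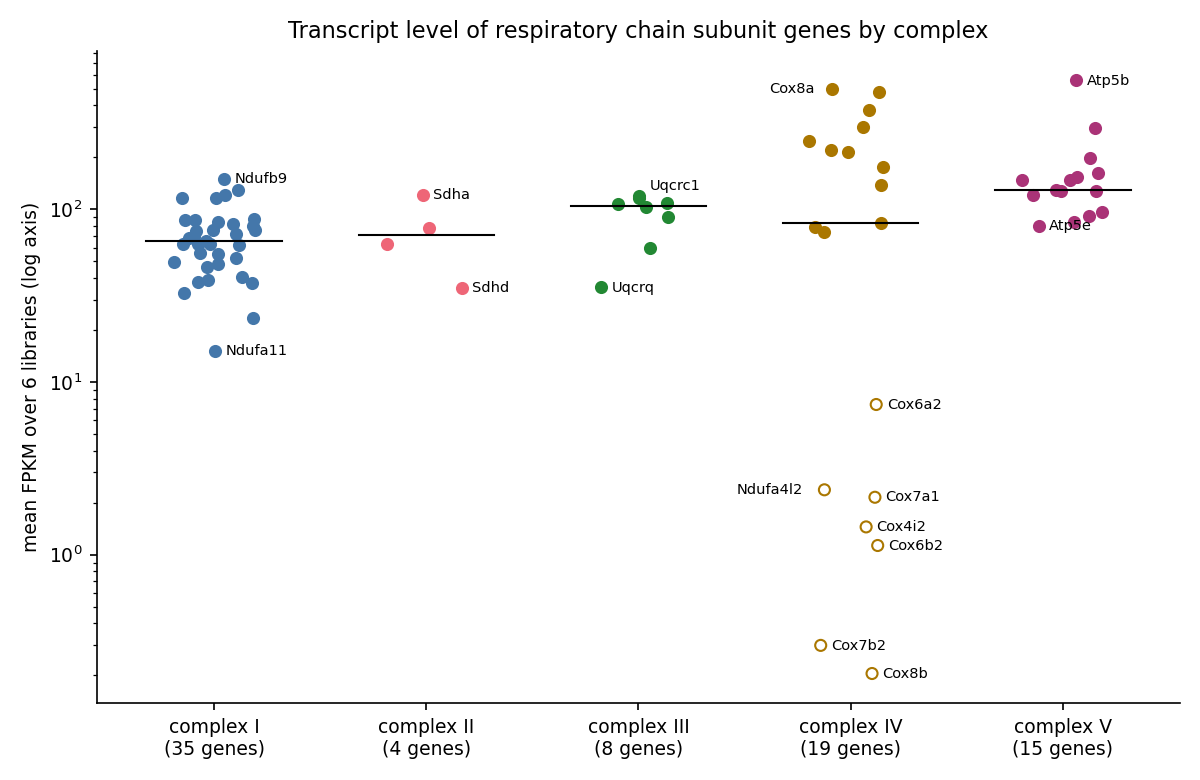
Mean FPKM over 6 libraries (log axis) of each subunit gene by complex; lines are the medians of each complex and open circles are tissue isoforms. Apart from the 7 tissue isoforms of complex IV, every gene lies between 15.2 FPKM (Ndufa11) and 558 FPKM (Atp5b).

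The complexes differed in transcript level. The median gene stood at 65.2 FPKM in complex I, 70.7 FPKM in complex II, 105 FPKM in complex III, 83.3 FPKM in complex IV and 129 FPKM in complex V. The complex IV median includes 7 tissue isoforms. Its other 12 genes had a median of 217 FPKM, above that of complex V, and none was under 73.8 FPKM (Cox7b). Within complex I, levels spanned 9.83-fold, from the accessory subunit Ndufa11 at 15.2 FPKM to the accessory subunit Ndufb9 at 150 FPKM. The deposited length of Ndufa11, 2661 bases, is among the longest of the 83 genes and enters its FPKM directly. In complex II the flavoprotein Sdha (121 FPKM) stood 3.46-fold above the membrane anchor Sdhd (35.1 FPKM). In complex III levels ran from Uqcrq (35.3 FPKM) to the core protein Uqcrc1 (119 FPKM), and in complex V from the F1 epsilon subunit Atp5e (80.3 FPKM) to Atp5b.

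Summed over their genes, the complexes kept nearly the same share of the chain's transcripts in every library. Complex I held 27.1% to 27.5% of the summed FPKM, complex II 3.15% to 3.43%, complex III 8.21% to 8.45%, complex IV 32.2% to 32.9% and complex V 28.1% to 28.7%. These are shares of transcripts, not of assembled complexes.

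For the comparison of isolated with control mice, the summed level of each complex overlapped between the groups. The complex I sum was 2436, 2469 and 2392 FPKM in controls 1 to 3 and 2414, 2412 and 2441 FPKM in isolated 1 to 3. Complex II summed to 279.9, 307 and 302 FPKM in control and 296, 301 and 303 FPKM in isolated libraries. In complex II, control 1 was the lowest of the 6 libraries, and the isolated libraries lay inside the control range.

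The complex III sum was 743, 756 and 736 FPKM in control and 721, 746 and 737 FPKM in isolated libraries. Complex IV summed to 2924, 2985 and 2863 FPKM in control and 2828, 2872 and 2936 FPKM in isolated libraries. Complex V summed to 2499, 2591 and 2493 FPKM in control and 2522, 2499 and 2541 FPKM in isolated libraries. By FPKM, control 2 gave the highest sum in each of complexes I to V. By CPM, control 2 was highest only in complex IV, with isolated 1 highest in complexes I and V, control 3 in II and isolated 2 in III. Over all 81 subunit genes the sum was 8925 ± 166 FPKM in control and 8856 ± 91.6 FPKM in isolated libraries (SD, n = 3), a difference of -0.775%. In such bulk samples, fewer cells of a type and less RNA per cell cannot be told apart.

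**Figure D2:**
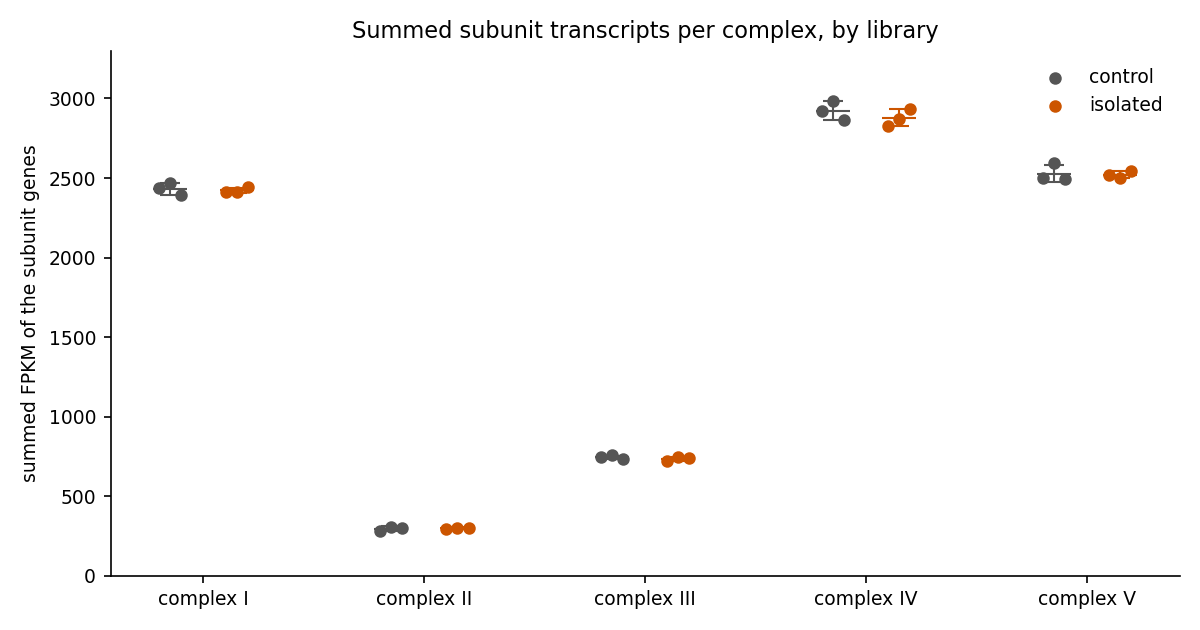
Summed FPKM of the subunit genes of each complex in the 3 control and 3 isolated libraries (points), with the mean and SD of each group (lines). The groups overlap in all 5 complexes, for example at 2392 to 2469 FPKM in control and 2412 to 2441 FPKM in isolated libraries for complex I.

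No respiratory chain gene passed the test between the groups. By edgeR's quasi-likelihood test, 0 of 81 genes had a Benjamini-Hochberg adjusted p under 0.05, as for 0.0% of all tested genes, and the adjusted p was at least 0.999 for each of the 81. At an unadjusted p under 0.05 there was 1 gene (Ndufs3, lower in isolated libraries), or 1.23% of the 81, against 3.53% of all tested genes in either direction, 2.0% in the lower and 1.52% in the higher direction. DESeq2 called 0 of the 81 at an adjusted p under 0.05, beside 0.00659% of all tested genes (1 gene), and 0 at an unadjusted p under 0.05, beside 2.02%. The groups did not overlap in CPM for 3 genes in the higher and 4 in the lower direction, 8.64% of the 81, beside 8.85% of all tested genes (4.12% higher and 4.73% lower).

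The estimates were close to 0 and narrow. The log2 difference, isolated over control, was above 0 for 38 of the 81 genes (46.9%, against 49.2% of all tested genes), and its median was -0.009, against -0.002 over all tested genes. The median size of the difference was 0.044 on the log2 scale, against 0.071 over all tested genes. The 95% interval lay within 0.25 of 0 on the log2 scale, a 1.19-fold change, for 71 of the 81 genes (87.7%), against 35.6% of all tested genes. The 81 genes are more abundant, with a median of 59.8 CPM against 21.4 CPM, and the median within-group SD of log2 CPM was 0.053 against 0.119. The 10 genes with wider intervals were the 5 tested tissue isoforms together with Ndufb2, Ndufb7, Ndufc1, Ndufs8 and Uqcrb. Leaving the tissue isoforms aside, the estimates ran from -0.138 (Ndufc1) to 0.081 (Uqcrc2).

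**Figure D3:**
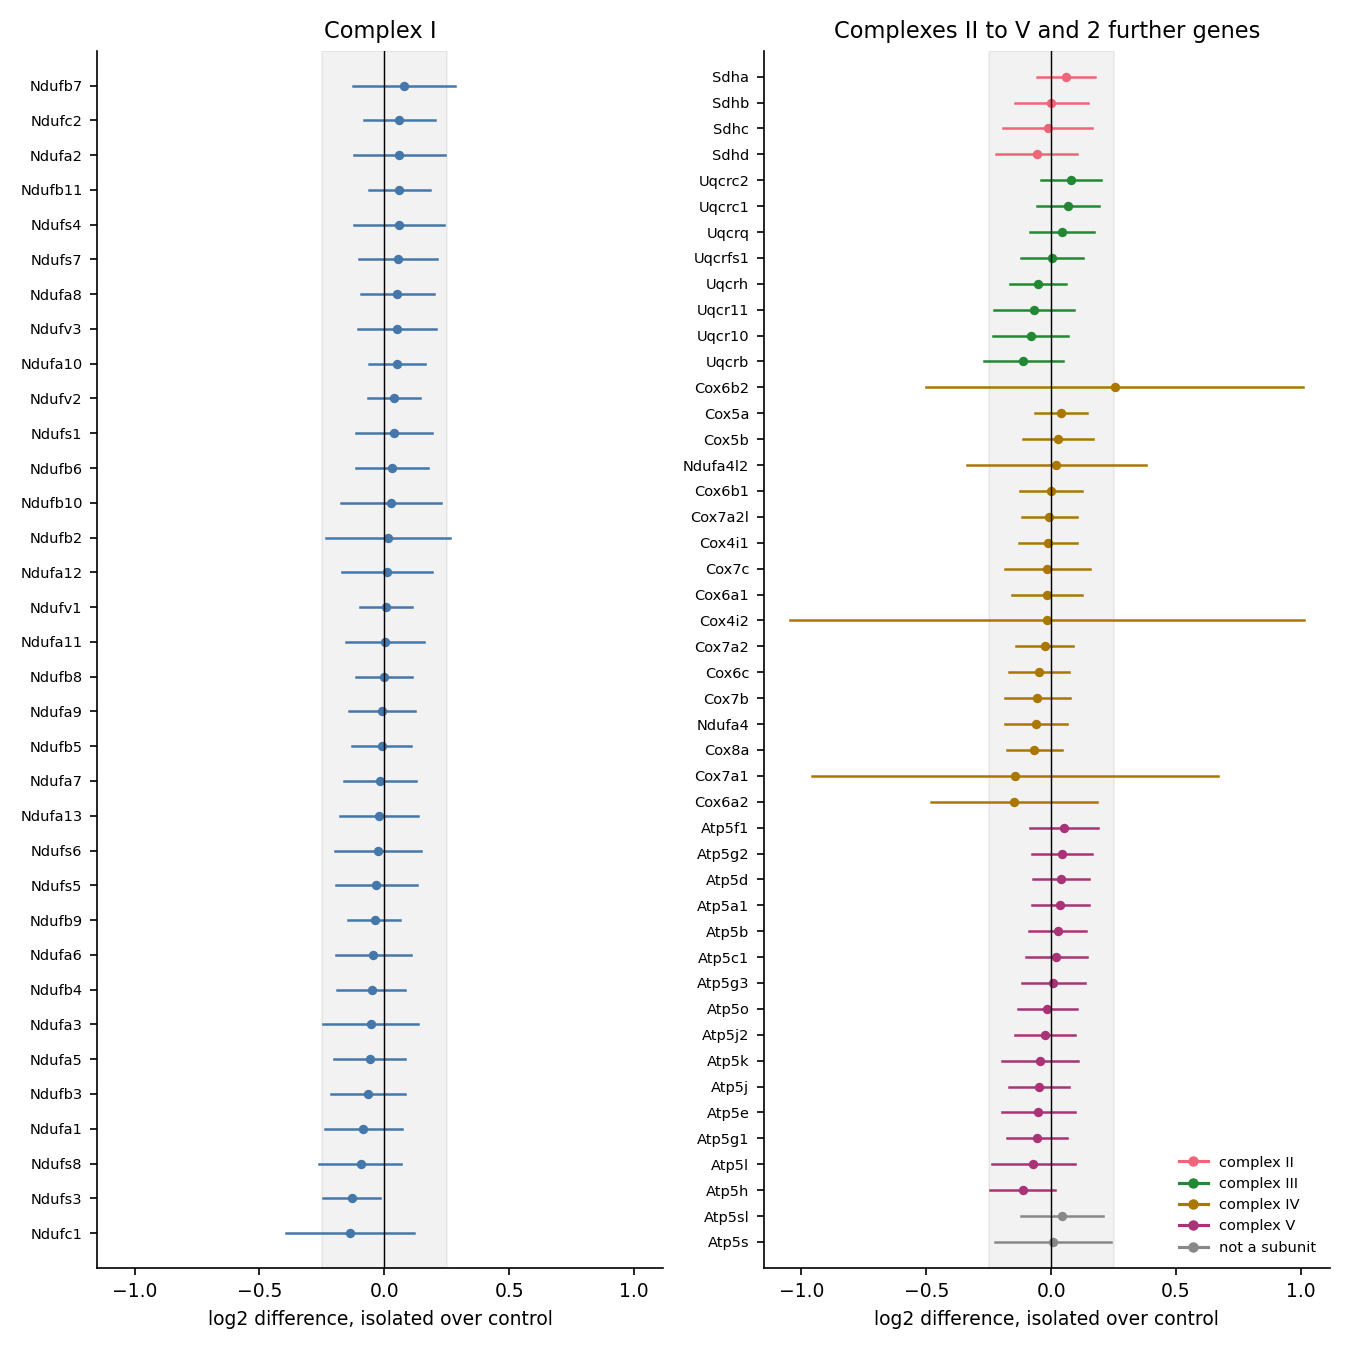
Log2 difference, isolated over control, with its 95% interval (edgeR) for 80 of the 81 tested genes, ordered within each complex; the grey band marks 0.25 to either side of 0. The interval of every gene shown but Ndufs3 includes 0, and the widest intervals belong to tissue isoforms such as Cox4i2.

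In complex I, 18 of 35 genes were higher and 17 lower in the isolated mean, with a median log2 difference of 0.002. Among the 7 core subunits, which carry the flavin and iron-sulfur clusters or sit at the quinone site, 5 were higher and the median was 0.007. The 28 accessory subunits had a median of -0.005, with 13 higher. The flavoprotein subunit Ndufv1, where NADH is oxidised, lay at 85.8, 86.4 and 86.4 FPKM in control and 86.6, 85.3 and 88.3 FPKM in isolated libraries. The groups overlapped, and its log2 difference was 0.007 (95% interval -0.099 to 0.113). The iron-sulfur subunit Ndufs1 lay at 44.9, 51.6 and 50.5 FPKM in control and 51.7, 49.1 and 50.4 FPKM in isolated libraries, with control 1 alone below the rest.

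Ndufs3, a core subunit of the arm that conducts electrons to ubiquinone (chr2:90894627-90904721), was the gene with the smallest p-value. It stood at 82.7, 83.6 and 86.4 CPM in controls and 76.1, 74.9 and 79.7 CPM in isolated libraries. Every isolated library was below every control library. The log2 difference was -0.13 (SE 0.049, 95% interval -0.245 to -0.016), a ratio of 0.914, with an unadjusted p of 0.0309 and an adjusted p of 0.999 by edgeR's quasi-likelihood test. Without control 2 and isolated 3 it was -0.162 with an unadjusted p of 0.0332. Of the 50-base stretches of its transcripts, as long as the reads, 16.1% also occur in the transcripts Gm12251 and Gm11927, so its count is in part uncertain.

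Among the other complex I genes, the groups did not overlap in CPM for Ndufb9, Ndufb11 and Ndufv2. The accessory subunit Ndufb9 had 95.5, 94.6 and 93.0 CPM in controls and 90.1, 92.6 and 92.8 CPM in isolated libraries, a log2 difference of -0.039. In FPKM the Ndufb9 groups overlapped, with control 3 at 148.0 FPKM and isolated 2 and 3 at 148.8 and 150.7 FPKM. Ndufb11, an accessory subunit encoded on the X chromosome, had 59.9, 55.7 and 59.4 CPM in controls and 60.9, 60.9 and 60.7 CPM in isolated libraries, a log2 difference of 0.06, and of 0.03 without control 2 and isolated 3. Ndufv2, a core iron-sulfur subunit, had 81.2, 83.5 and 85.2 CPM in controls and 85.6, 85.7 and 85.7 CPM in isolated libraries, a log2 difference of 0.04. In all 3 genes the gap between the groups was under 1 CPM, and none had an unadjusted p under 0.05. The most negative estimate of complex I, -0.138 for the accessory subunit Ndufc1, came with overlapping groups, at 24.0, 29.1 and 29.4 CPM in controls and 24.6, 27.8 and 22.5 CPM in isolated libraries. It was -0.025 without control 2 and isolated 3, and between -0.227 and -0.069 with 1 library left out. The most positive was 0.08 for Ndufb7 (95% interval -0.125 to 0.284), which was -0.013 without control 2 and isolated 3.

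In complex II the catalytic subunits and the membrane anchors had medians of 0.031 and -0.036. Sdha, the flavoprotein that oxidises succinate (chr13:74322255-74350240), stood at 332, 338 and 351 CPM in controls and 357, 357 and 351 CPM in isolated libraries. On this scale the third isolated library met the third control library. In FPKM the groups did not overlap, at 116, 119 and 121 FPKM in control and 124, 125 and 124 FPKM in isolated libraries. The share of all tested genes without overlap was counted in CPM only, so none stands beside this. The log2 difference of Sdha was 0.06 (SE 0.05, unadjusted p = 0.265 by edgeR). The iron-sulfur subunit Sdhb had a log2 difference of 0.001, the anchor Sdhc -0.014 and the anchor Sdhd -0.058, which was -0.026 without control 2 and isolated 3.

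In complex III the core proteins and the small subunits lay on opposite sides of 0. Uqcrc2 had 159, 164 and 169 CPM in controls and 175, 178 and 168 CPM in isolated libraries, with a log2 difference of 0.081 (SE 0.052, unadjusted p = 0.161 by edgeR). Uqcrc1 had 201, 190 and 185 CPM in controls and 201, 203 and 201 CPM in isolated libraries, with a log2 difference of 0.068. On the CPM scale 1 library bridged the groups in both genes, isolated 3 for Uqcrc2 and control 1 for Uqcrc1. On the FPKM scale the Uqcrc2 groups did not overlap, with the highest control at 89.8 FPKM and the lowest isolated library at 90.9 FPKM. No share of all tested genes was counted on that scale. Of the 5 small accessory subunits, 4 were lower and Uqcrq was higher (0.044), with a median of -0.067. The lowest of them, Uqcrb (-0.111), shares 25.4% of its 50-base stretches with other transcripts. Its log2 difference was -0.026 without control 2 and isolated 3, and between -0.146 and -0.066 with 1 library left out.

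Uqcrh, the hinge subunit near the cytochrome c site, had 63.5, 62.8 and 63.5 CPM in controls and 59.6, 62.5 and 61.0 CPM in isolated libraries. The groups did not overlap, and the log2 difference was -0.052 with an unadjusted p of 0.312 by edgeR. The Rieske iron-sulfur protein Uqcrfs1 had a log2 difference of 0.002. These opposite signs show in the complex III sum, which was 1.38% lower by FPKM (-1.38%) and 1.42% higher by CPM, since CPM gives long transcripts such as Uqcrc1 and Uqcrc2 more weight.

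In complex IV, 12 of 17 tested genes were lower in the isolated mean and 5 higher, with a median of -0.017, beside 50.8% of all tested genes below 0. Cox8a, a small subunit of the cytochrome c oxidase (chr19:7215158-7217616), stood at 505, 507 and 510 FPKM in control and 483, 484 and 487 FPKM in isolated libraries. Each group lay within a narrow band and the bands did not overlap, yet the log2 difference was -0.068 (SE 0.047, 95% interval -0.178 to 0.043, unadjusted p = 0.193 by edgeR). That SE rests on a spread that edgeR moderates over all genes and on the sampling noise of 4584 to 4825 counts per library. With 3 libraries a group, the SDs of 2.24 and 2.36 FPKM (3.05 and 1.45 CPM) can understate the spread. No 50-base stretch of Cox8a is shared with another gene's transcripts. Across the 15 alternative fits its log2 difference stayed between -0.073 and -0.058, with a smallest p of 0.186.

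Among the other widespread subunits of complex IV, Cox4i1, which binds the regulatory nucleotides, lay at 376, 392 and 364 FPKM in control and 375, 373 and 375 FPKM in isolated libraries. The isolated libraries sat within the control range, and the log2 difference was -0.012. Cox5a had the highest estimate of the widespread subunits, with a log2 difference of 0.04, and Cox6b1 stood at 0.0. Ndufa4 had 295, 308 and 317 FPKM in control and 301, 294 and 288 FPKM in isolated libraries, with a log2 difference of -0.06. Cox7a2l, known as a supercomplex assembly factor, stood at 79.4 FPKM, close to the 83.3 FPKM of Cox7a2, and its log2 difference was -0.007.

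Most tissue isoforms of complex IV replace a widespread subunit in muscle, heart, lung or testis, and Ndufa4l2 is known for its induction by low oxygen. Their transcripts were rare in this cortex. Cox6a2, the muscle form of Cox6a1, was the most abundant at 7.41 FPKM, 65.0-fold below Cox6a1. Ndufa4l2 (2.38 FPKM) stood 126-fold below Ndufa4, and Cox7a1 (2.15 FPKM) 38.7-fold below Cox7a2. Cox4i2 (1.45 FPKM) stood 260-fold below Cox4i1, and Cox6b2 (1.13 FPKM) 219-fold below Cox6b1. Cox7b2 and Cox8b were near the limit of detection, at 0 to 8 and 0 to 4 expected counts per library, where 3 counts, the upper limit that a count of 0 allows, equal 0.161 to 0.165 CPM.

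**Figure D4:**
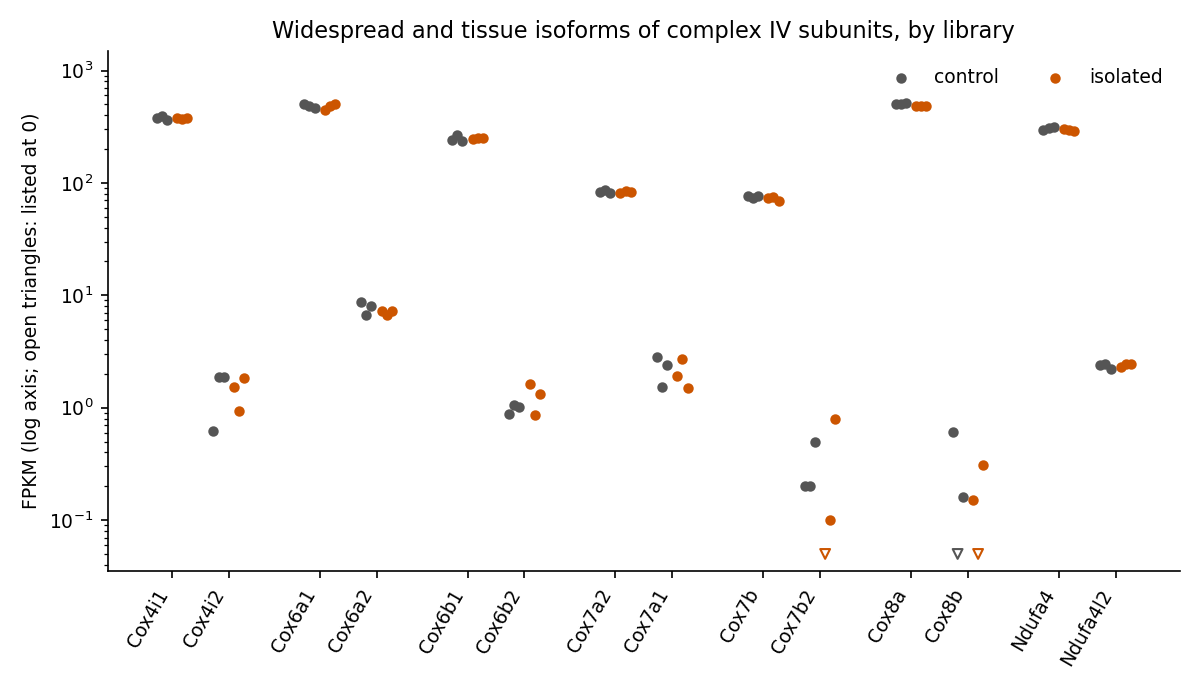
FPKM (log axis) of widespread subunits of complex IV and their tissue isoforms in each library; open triangles mark libraries in which a gene was listed at 0. Every widespread subunit lies at least 38.7-fold above its tissue isoform in the mean over libraries, and the groups overlap for every tissue isoform.

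Cox6a2 lay at 5.68, 4.30 and 5.22 CPM in controls and 4.72, 4.35 and 4.63 CPM in isolated libraries, with overlapping groups and a log2 difference of -0.149 (SE 0.142), or -0.265 without control 2 and isolated 3. Cox6a2 is also known from interneurons that express parvalbumin, whose marker Pvalb stood at 65.7, 34.3 and 46.2 CPM in controls and 50.0, 41.9 and 44.8 CPM in isolated libraries. For both genes control 1 was highest and control 2 lowest. Other markers of those cells did not keep this order: Gad1 (397 CPM) and Erbb4 (84.4 CPM) were highest in isolated 3 and Tac1 (63.3 CPM) in control 2. Kcnc1 was highest in control 1 (336 CPM) and lowest, at 271 CPM, in control 2 and isolated 3. The part of those cells in the Cox6a2 level was not tested. Markers of skeletal and heart muscle summed to 12.9 to 17.1 CPM in controls and 15.1 to 18.2 CPM in isolated libraries, with the muscle creatine kinase Ckm at no more than 0.272 CPM in any library.

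Cox4i2 and Ndufa4l2 are known from pericytes of brain vessels. Cox4i2 had 8, 24 and 24 expected counts in control and 20, 12 and 24 in isolated libraries, and control 1 and isolated 2 were the lowest. Ndufa4l2 had 43, 43 and 39 in control and 41, 43 and 44 in isolated libraries. The groups overlapped for both genes, and pericyte and smooth muscle markers summed to 235 to 273 CPM in controls and 217 to 235 CPM in isolated libraries. Cox6b2, a testis form, had 9, 10 and 10 expected counts in control and 15, 8 and 12 in isolated libraries, and Cox7a1 had 19, 10 and 16 in control and 13, 18 and 10 in isolated libraries. Differences of these genes were not detectable at this depth unless large: the 95% interval for Cox4i2 ran from -1.05 to 1.01 on the log2 scale.

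In complex V, 7 of 15 genes were higher and 8 lower in the isolated mean, with a median of -0.015. Of the 5 F1 subunits, which form the catalytic head and central stalk, 4 were higher, with a median of 0.026. Atp5b lay at 546, 563 and 548 FPKM in control and 568, 558 and 564 FPKM in isolated libraries, with a log2 difference of 0.026. Atp5a1, the alpha subunit beside it in the head, had 287, 296 and 292 FPKM in control and 299, 294 and 305 FPKM in isolated libraries, with a log2 difference of 0.036. For both genes control 2 overlapped the isolated libraries. The 4 peripheral stalk subunits had a median of -0.032 and the 3 small membrane subunits Atp5j2, Atp5k and Atp5l a median of -0.043, with all 3 lower.

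Atp5h, the d subunit of the peripheral stalk, had the most negative estimate of complex V. It stood at 209, 217 and 192 FPKM in control and 188, 195 and 188 FPKM in isolated libraries, with control 3 inside the isolated range. Its log2 difference was -0.114 (SE 0.056), with an unadjusted p of 0.0787 by edgeR, and -0.066 without control 2 and isolated 3. Other transcripts share 19.9% of its 50-base stretches. The stalk subunit Atp5f1 had the most positive estimate, 0.051.

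The c ring, the rotor that protons turn, is built from 1 protein that 3 genes encode, and none of them dominated. Atp5g3 supplied 39.9% to 42.2% of their summed FPKM over the 6 libraries, Atp5g1 32.1% to 34.6% and Atp5g2 23.9% to 26.2%. The Atp5g1 share was 33.7%, 34.6% and 34.5% in control and 33.5%, 32.1% and 33.4% in isolated libraries. These groups did not overlap, while the shares of the other 2 genes did. Atp5g2 had 56.7, 53.8 and 56.6 CPM in controls and 56.7, 56.9 and 58.5 CPM in isolated libraries, where control 1 and isolated 1 met at the third digit. In FPKM the Atp5g2 groups overlapped, with control 1 at 91.5 FPKM and isolated 1 at 90.8 FPKM. The Atp5g2 count is uncertain, since 38.3% of its 50-base stretches occur in other transcripts, against 10.2% for Atp5g1 and none for Atp5g3. The log2 differences were -0.058 for Atp5g1, 0.043 for Atp5g2 and 0.008 for Atp5g3. Without control 2 and isolated 3, Atp5g2 had a log2 difference of 0.004.

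The estimates went with the length of the gene in the deposited tables, a pattern noticed after the values were seen and given as a description. All 14 tested genes longer than 1500 bases were higher in the isolated mean, with a median log2 difference of 0.042. Of the 40 genes of up to 700 bases, 28 were lower (70.0%), with a median of -0.041, and of the 27 between these lengths 12 were higher. The long genes include Sdha, Atp5a1, Atp5b, Uqcrc1, Uqcrc2 and Ndufs1, so that length and role run together in the set. Spearman's rho of length and log2 difference was 0.50 across the 81 genes, which share the 6 libraries and are not independent replicates.

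The other tested genes did not show that order in these libraries: 51.3% of those longer than 1500 bases and 46.1% of those of up to 700 bases were lower, and rho over all tested genes was -0.08. Within single libraries, rho of length and the deviation from the mean of all libraries was -0.37 in control 2 and 0.41 in isolated 1, and between -0.19 and 0.22 in the others. Without control 2 and isolated 3, 10 of the 14 long genes were higher and rho was 0.35. The labels give no measure of RNA integrity, and its part in the pattern was not tested.

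**Figure D5:**
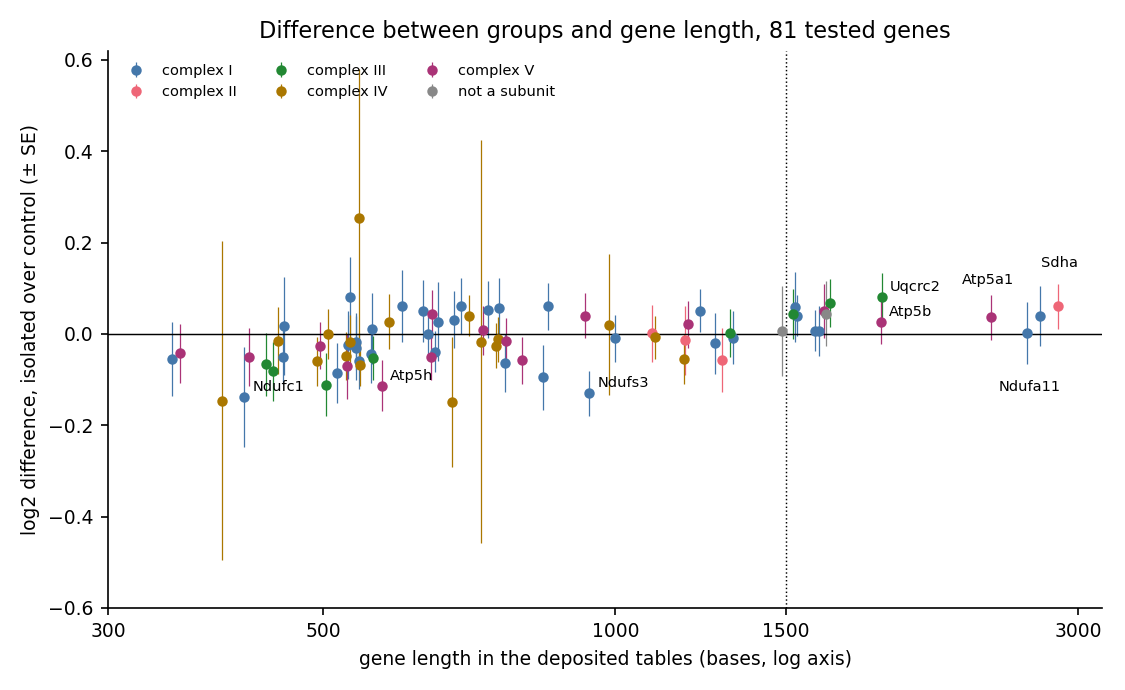
Log2 difference, isolated over control (± SE, edgeR), against gene length in the deposited tables (log axis) for the 81 tested genes, coloured by complex; the dotted line marks 1500 bases. All 14 genes to the right of the line lie above 0, while 28 of the 40 genes of up to 700 bases lie below.

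Genes that build and feed the chain were read from the same fit. Of 45 tested assembly factors, which insert cofactors and join subunits, 27 were higher in the isolated mean and 18 lower. Of all tested genes, 49.2% were higher. The assembly factors had a median log2 difference of 0.008 and 0 at an adjusted p under 0.05 by edgeR. At an unadjusted p under 0.05 there was 1 assembly factor in each direction. The shares of all tested genes were 1.52% in the higher and 2.0% in the lower direction. Ecsit, a complex I assembly factor, had 33.8, 32.8 and 34.0 CPM in controls and 36.9, 38.6 and 38.6 CPM in isolated libraries (unadjusted p = 0.016, adjusted p = 0.999, edgeR). Sdhaf4, which serves the Sdha subunit, had 8.70, 10.4 and 9.56 CPM in controls and 6.78, 8.54 and 7.46 CPM in isolated libraries (unadjusted p = 0.029, adjusted p = 0.999, edgeR). The groups did not overlap for either gene, as for 8.85% of all tested genes.

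Of 15 regulators of mitochondrial biogenesis and mitochondrial DNA, 9 were higher, beside 49.2% of all tested genes. These regulators had a median of 0.011 and 0 at an unadjusted p under 0.05 by edgeR. Those with the smallest p were Yy1 (40.1 ± 1.72 CPM in control, 36.9 ± 0.539 CPM in isolated libraries, SD, n = 3) and the coactivator Pprc1 (34.6 ± 4.16 and 30.4 ± 1.75 CPM). The coactivator Ppargc1a, the main switch of the programme, stood at 54.9, 55.2 and 53.9 CPM in controls and 60.6, 58.6 and 49.1 CPM in isolated libraries, where isolated 3 was lowest and isolated 1 highest. Nrf1, which encodes NRF-1, had 16.2 ± 0.33 CPM in controls and 17.0 ± 1.41 CPM in isolated libraries (SD, n = 3).

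Of 13 electron carriers and other chain parts outside the symbol rule, 5 were higher (38.5%, against 49.2% of all tested genes). Their median was -0.002. At an unadjusted p under 0.05 by edgeR there was 1, in the lower direction, beside 2.0% of all tested genes in that direction. Etfb, a subunit of the flavoprotein that brings electrons from fatty acid oxidation, had 16.4, 17.0 and 16.1 CPM in controls and 14.5, 14.6 and 14.6 CPM in isolated libraries (unadjusted p = 0.0291, adjusted p = 0.999, edgeR). Etfdh, the enzyme that passes these electrons to ubiquinone, had 23.0, 24.3 and 22.9 CPM in controls and 21.9, 20.3 and 21.5 CPM in isolated libraries (unadjusted p = 0.0719, edgeR). In both genes every isolated library was below every control library, as for 4.73% of all tested genes. Etfa, the partner of Etfb, overlapped at 17.6 to 22.3 CPM in controls and 18.2 to 20.4 CPM in isolated libraries. Cyc1, the cytochrome c1 of complex III, had a log2 difference of 0.065, and Cycs, which encodes cytochrome c, -0.007.

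Of 16 citric acid cycle and pyruvate dehydrogenase genes, which make the NADH and succinate the chain uses, 14 were higher in the isolated mean (87.5%, against 49.2% of all tested genes), with a median of 0.054. None had an unadjusted p under 0.05 by edgeR, beside 3.53% of all tested genes. Those with the smallest p were Suclg2, lower at 16.3 ± 1.02 CPM in isolated against 18.2 ± 0.898 CPM in control libraries, and fumarase Fh1, at 64.1 ± 2.8 against 60.1 ± 0.858 CPM (SD, n = 3). Their summed level overlapped between the groups, at 2650 to 2770 CPM in controls and 2740 to 2850 CPM in isolated libraries.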

How the data were processed

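RNA of the medial prefrontal cortex was sequenced as 50-base reads, per the labels' protocols. Per the file headers, the authors deposited 1 table per library with the expected count, the FPKM and the length of each gene. The submitters' processing notes name HISAT, Bowtie2, RSEM and mm10. Their versions, and whether strand was used in counting, are not given in the sources. A gene with no entry in a library was taken as 0. The entry without a gene identifier held at most 0.000947% of the counts and was left out. A further table of 6 FPKM columns was not used, since its column names match no sample label. Counts of any 2 libraries differed beyond sampling noise (chi-square per gene 2.89 to 20.4).

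The deposited expected counts were rounded and tested with edgeR 4.0.16 (R 4.3.3; filterByExpr, minimum count 10, minimum total 15; TMM; quasi-likelihood F-test, isolated against control, no covariates). This left 15169 of 19943 genes, over which p-values were adjusted by the Benjamini-Hochberg method at 0.05. CPM are TMM-normalized. The SE was derived from the log2 difference and F. Limma 3.58.1 (voom, and log2(FPKM + 1) or log2(FPKM + 0.1)) and DESeq2 1.42.0 served as alternatives, with upper-quartile scaling, no filter and libraries left out. The fit was tested on simulated data. Transcripts were compared by shared 50-base stretches in GENCODE M21. The total per library sets the precision, and intervals cover these libraries only.

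The members and lists were chosen with earlier results of these data known. Named were genes at an unadjusted p under 0.05, the extremes of each complex in level and difference, tissue isoforms, core subunits, genes sharing at least 15% of their 50-base stretches and, in the related lists, genes at an unadjusted p under 0.05 or the nearest 2. Genes whose groups do not overlap, and the others named, were chosen after their values were seen. The counts include 1 gene that is not reported by itself here.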

Additional observations from a re-analysis of the deposited data

How the results depend on the processing

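In all 15 alternative fits 0 of the respiratory chain genes had an adjusted p under 0.05, and between 36 and 44 were higher in the isolated mean. The 1 gene at an unadjusted p under 0.05 became 0 with DESeq2. Leaving out 1 library gave 0 to 1 such genes: 0 without control 2, isolated 1 or isolated 2, and Atp5h (edgeR, unadjusted p = 0.0297, adjusted p not under 0.05) in place of Ndufs3 without control 3. The cause was not tested. Leaving out 1 library moved the median log2 difference between -0.01 and 0.019 in complex I, -0.058 and 0.035 in complex II, -0.038 and -0.002 in complex III, and -0.032 and -0.008 in complex IV. Without control 2 and isolated 3 it was 0.025 in complex II, -0.007 in complex III and 0.004 in complex V. The summed complex III level had a log2 difference of 0.02 on CPM, which weighs long transcripts more.

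Deviations of same-numbered libraries from their group means correlated at 0.03, -0.27 and -0.49 over all tested genes. Only control 2 and isolated 3 (0.44) and control 3 with isolated 1 (0.31) or 2 (0.35) exceeded 0.1. This does not decide whether the replicate numbers pair the libraries. The deviations of the 3 libraries of a group sum to 0, and control 2 and isolated 3 also had the highest striatal marker sums. With the number as a replicate block, 0 of the 81 respiratory chain genes had an unadjusted p under 0.05 by edgeR. Cox4i2 then had a log2 difference of 0.025.

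Of 42 named genes, 23 kept their sign in all 15 fits, and 19 changed it in at least 1. Cox4i2 was 0.077 with log2(FPKM + 0.1), 0.02 with log2(FPKM + 1) with and without the filter, and 0.091 with voom. Cox7a2l was 0.002 with upper-quartile scaling. Without control 2 and isolated 3, the sign turned for Atp5o (0.001), Cox4i1 (0.014), Cox7a2l (0.007), Ndufa11 (-0.049), Ndufb4 (0.006), Ndufb7 (-0.013), Ndufs5 (0.018) and Ndufv1 (-0.003). Leaving out 1 library gave ranges that crossed 0 for Atp5g3 (-0.017 to 0.044), Atp5o (-0.047 to 0.007), Cox4i1 (-0.032 to 0.01), Cox4i2 (-0.382 to 0.214), Cox6a1 (-0.045 to 0.02), Cox6b1 (-0.021 to 0.045), Cox7a1 (-0.398 to 0.052), Cox7a2l (-0.033 to 0.008), Cox7c (-0.089 to 0.025), Ndufa11 (-0.03 to 0.053), Ndufa12 (-0.048 to 0.065), Ndufa4l2 (-0.019 to 0.044), Ndufs1 (-0.02 to 0.072), Ndufs5 (-0.087 to 0.012), Sdhb (-0.048 to 0.04) and Uqcrfs1 (-0.027 to 0.03). Over alternatives chosen after seeing the data, rho of length and difference lay between 0.34 and 0.55, and 10 to 14 of the 14 long genes were higher. Depth limits the tissue isoforms most.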
